A study of Mus musculus with 6 samples.

Results

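The 10 genes described here are among 55401 genes listed in a table of counts per gene from kidney endothelial cells (ECs). Of them, 5 encode the subunits of the transcription factor NF-κB (Nfkb1, Nfkb2, Rel, Rela and Relb). The other 5 (Nfkbia, Nfkbie, Nfkbiz, Nfkbid and Tnfaip3) are grouped here as its inhibitors, although the product of Nfkbiz is also needed for some response genes. All 10 genes were selected by name, with their values in these libraries already known. The differences between the groups below are therefore a description of genes chosen with this comparison in view and support no further statement. All 10 members passed the filter on low counts that left 18438 genes for testing. Their counts ranged from 207 for Nfkbid in CTRL 1 to 12911 for Nfkbia in CTRL 2.

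The study asked what changes in the transcriptome of kidney ECs when Rbpj, the gene of the DNA-binding factor through which Notch receptors act on their target genes, is deleted in the adult endothelium. The RbpjΔEC mice carried floxed Rbpj on both alleles and a tamoxifen-dependent Cre recombinase under the endothelial Cdh5 promoter (genotype Cre +/-; Rbpjf/f), and the CTRL mice were Cre-negative littermates with the same floxed alleles (Cre -/-; Rbpjf/f). All mice, CTRL included, received 5 intraperitoneal doses of 1.5 mg tamoxifen at 8 weeks of age, and ECs were sorted from the kidneys as CD31-positive and CD45-negative cells at an age given as 21 weeks, nominally 12 weeks after induction. There were 3 RbpjΔEC and 3 CTRL libraries, described as biological replicates, with 39649171 to 47726850 counts on genes per library. CTRL 1 stood apart in that 33764 genes had at least 1 count in it, where each of the other libraries had 25629 to 26785 such genes. Because the controls lacked the recombinase, an effect of the recombinase itself and the loss of Rbpj cannot be told apart.

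NF-κB is a family of dimeric factors that inhibitors of the IκB type hold in the cytoplasm of resting cells. Signals from tumour necrosis factor, interleukin-1 and Toll-like receptors activate the IκB kinase, which marks IκBα for degradation and frees dimers such as RelA with p50 in the canonical branch, whereas receptors such as the lymphotoxin β receptor act through NIK to process p100 and free RelB with p52 in the non-canonical branch. Many NF-κB genes and inhibitors are themselves NF-κB targets, which makes them feedback elements, and in ECs the pathway drives adhesion molecules and chemokines that recruit leukocytes.

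Promoter sequences are shown first, as the letters of a binding motif for NF-κB can be looked up in them. The RefSeq promoter table on GRCm38.p6, with 250 bases before and 50 bases after each annotated transcript start, held 7 of the 10 genes in 12 windows. It had no entry for Nfkb1, Relb and Nfkbiz. A search of both strands for the consensus NF-κB motif, a 10-letter pattern with a G-rich start, a variable centre and a C-rich end, found a match in 6 of the 7 genes and in 8 of the 12 windows, against 9.55% of the 27025 genes and 8.46% of the 32851 windows in the whole table. In the following stretches the capitals mark these matches, each stretch is written 5′ to 3′ on the strand of its gene, and positions count back from the base before the transcript start, which is -1.
Nfkbia: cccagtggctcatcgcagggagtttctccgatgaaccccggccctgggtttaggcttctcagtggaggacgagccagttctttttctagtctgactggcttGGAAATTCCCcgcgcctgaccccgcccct
Nfkbie: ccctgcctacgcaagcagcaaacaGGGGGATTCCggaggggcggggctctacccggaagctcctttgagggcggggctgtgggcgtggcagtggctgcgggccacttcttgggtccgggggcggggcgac
Nfkbid: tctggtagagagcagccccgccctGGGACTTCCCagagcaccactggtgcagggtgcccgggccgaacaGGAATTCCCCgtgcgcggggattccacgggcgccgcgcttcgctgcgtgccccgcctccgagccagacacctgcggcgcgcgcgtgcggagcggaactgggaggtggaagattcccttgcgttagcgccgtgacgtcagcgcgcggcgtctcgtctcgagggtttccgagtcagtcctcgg
Tnfaip3: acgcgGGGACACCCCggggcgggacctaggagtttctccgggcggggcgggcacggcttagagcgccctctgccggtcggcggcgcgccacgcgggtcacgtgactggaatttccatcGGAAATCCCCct
Rel: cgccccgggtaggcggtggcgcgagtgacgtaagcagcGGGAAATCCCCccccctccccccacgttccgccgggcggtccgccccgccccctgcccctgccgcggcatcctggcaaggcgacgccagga
Nfkb2: GGGAATTCCCCccctcggggggccgaaa

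The Nfkbia stretch (chr12:55492648-55492777, minus strand) held 1 match at -29 to -20, close to the start. The Nfkbie stretch (chr17:45555570-45555699, plus strand) held 1 match at -106 to -97. The Nfkbid stretch (chr7:30422156-30422405, plus strand) lies within the gene before the second of its 3 annotated starts, outside its exons, and held matches at -226 to -217 and at -181 to -172, while the windows of its other 2 starts held none. The Tnfaip3 stretch (chr10:19015411-19015540, minus strand) held matches at -125 to -116 and at -12 to -3 of the first of its 2 starts. The Rel stretch (chr11:23770971-23771099, minus strand) held a pair of matches that overlap in all but 1 base, between -92 and -82. The 28 bases of Nfkb2 (chr19:46304698-46304725, plus strand) held a similar overlapping pair between -39 and -29 of its first start, and a further match followed at -11 to -2. These 28 bases lie in an exon of another Nfkb2 transcript, whereas the other 5 stretches lie outside the annotated exons of their genes. Each of the other 2 starts of Nfkb2 also had a match in its window, but these windows overlap and share 1 match, at 11 to 20 of the second start and at -225 to -216 of the third. Rela, whose product is the main activating subunit of the canonical branch, was the gene of the 7 without a match in its single window. Restricted to the bases before the start, a match was still found in 6 of the 7 genes, against 8.23% of all genes in the table.

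The RBPJ core TGGGAA was searched in the same windows, since Rbpj is the deleted gene. It occurred in Rel, Nfkbid and Tnfaip3, that is in 3 of the 7 genes, against 28.3% of all genes. Restricted to the bases before the start, it occurred in 2 of the 7 (Nfkbid and Tnfaip3), against 24.1% of all genes. In Nfkbid 1 RBPJ core at -221 to -216, read on the opposite strand, overlapped the NF-κB match at -226 to -217, so that the last 5 bases of the first capital run above belong to both patterns and the base after it to the RBPJ core alone. The AP-1 motif TGANTCA occurred in Nfkb2, Nfkbie and Tnfaip3, against 8.97% of all genes, and the serum response motif in none of the 7, against 1.81%. These matches describe letters in a window and say nothing on binding in these cells.

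**Figure D1:**
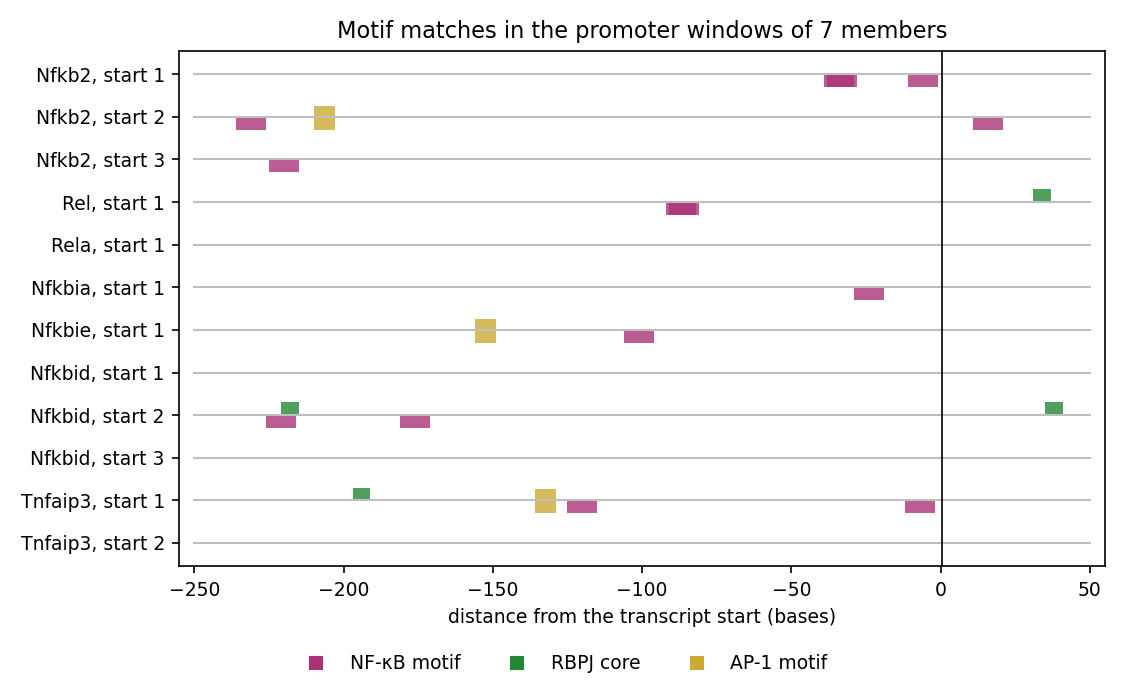
Positions of NF-κB motif, RBPJ core and AP-1 motif matches on either strand in the 12 RefSeq promoter windows of 7 genes, as the distance in bases from each transcript start (vertical line). A match to the NF-κB motif lies in 8 of the 12 windows, and the only overlap of an NF-κB with an RBPJ match is at the second start of Nfkbid.

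Nfkbiz and Nfkbid, the genes of the atypical nuclear IκB proteins IκBζ and IκBNS, were the members with the largest differences. IκBζ binds NF-κB dimers on DNA and is needed for a set of secondary response genes, and IκBNS acts on p50 dimers in the nucleus. Nfkbiz (ENSMUSG00000035356.17, chr16:55811375-55838899, minus strand) was at 109, 155 and 109 CPM (counts scaled to a normalised library size) in CTRL 1 to 3 and at 237, 218 and 232 CPM in RbpjΔEC 1 to 3. The groups did not overlap, and the RbpjΔEC libraries lay closer together than the CTRL libraries, with 229 ± 9.73 CPM (SD, n = 3) against 124 ± 26.3 CPM (SD, n = 3). This was a log2 fold change of 0.88 ± 0.131 (SE), or 1.84-fold, with an adjusted p of 0.0235 (edgeR quasi-likelihood test, Benjamini-Hochberg adjustment over all tested genes).

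Nfkbid (ENSMUSG00000036931.15, chr7:30421732-30428746, plus strand) had the lowest counts of the members, at 5.16, 6.51 and 5.35 CPM in CTRL 1 to 3 and at 11.1, 10.8 and 12.0 CPM in RbpjΔEC 1 to 3. Again every RbpjΔEC library was above every CTRL library. The log2 fold change was 0.99 ± 0.144 (SE), or 1.99-fold, with an adjusted p of 0.0121 by the same edgeR test and Benjamini-Hochberg adjustment. By raw p, Nfkbid was at place 27 and Nfkbiz at place 76 among all tested genes. Both calls depended on single libraries: leaving out 1 library at a time, Nfkbiz stayed past the threshold of 0.05 in 2 of 6 fits (adjusted p of 0.000219 to 0.101) and Nfkbid in 4 of 6 (0.00621 to 0.0731), with positive log2 fold changes of 0.79 to 1.06 and 0.93 to 1.10. The Nfkbiz call was lost without CTRL 1 (0.0588), CTRL 3 (0.0867), RbpjΔEC 1 (0.101) or RbpjΔEC 2 (0.0823), and the Nfkbid call without CTRL 3 (0.0731) or RbpjΔEC 1 (0.0645), all adjusted p-values from edgeR. Without CTRL 1, the library with counts on more genes, 1 member was called, where 0.284% of all genes tested in that fit were called. Without RbpjΔEC 2 there was also 1, where 0.25% were called, and without RbpjΔEC 3 there were 3, where 2.73% were called. Neither call held without CTRL 3 or RbpjΔEC 1, where 0.125% and 0.11% of all tested genes were called, against 1.13% with all 6 libraries. Calls were thus fewer over the whole table in these fits.

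Counted over the 10 genes, 2 were called higher and 0 lower, where 0.575% of all tested genes were called higher and 1.13% in either direction. The groups did not overlap, with RbpjΔEC above CTRL, for 3 members (Nfkb2, Nfkbiz and Nfkbid), against 11.4% of all tested genes. An unadjusted p below 0.05 with a rise was seen for 4 members (those 3 and Nfkbie), against 8.88% of all tested genes. The log2 fold change was above 0 for 9 of the 10, against 51.1% of all tested genes, and its median was 0.32, where the median of all tested genes was 0.01. DESeq2's Wald test, run on all 38324 genes with a count and thus also without the low-count filter, called 3 members higher, adding Nfkb2, against 0.684% of the genes it tested. As the members were chosen with these values known, their counts are read only as a description beside the background.

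**Figure D2:**
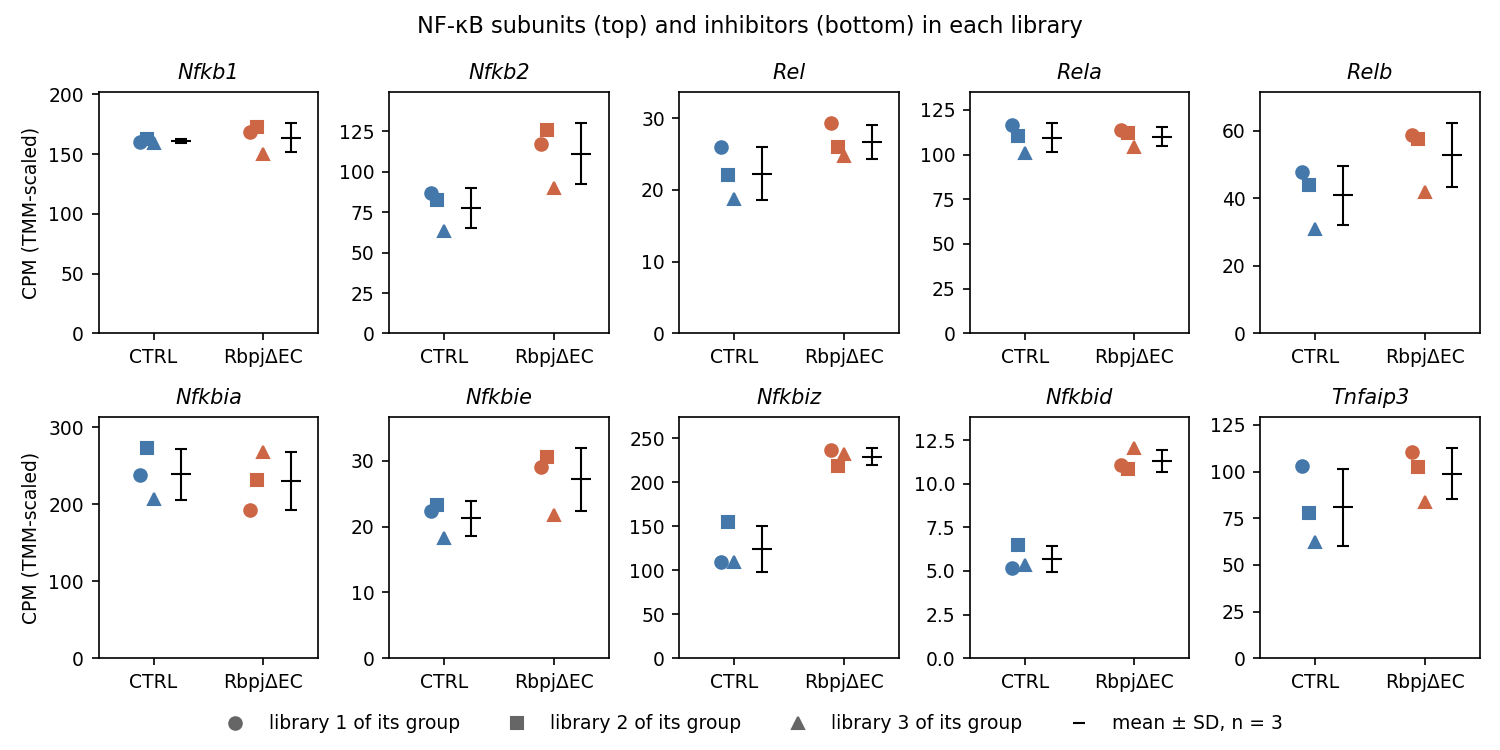
TMM-scaled CPM of each gene in the 3 CTRL and 3 RbpjΔEC libraries (y axis from 0, symbols for the library number, horizontal mark and bars for mean ± SD, n = 3), subunits above and inhibitors below. The 3 RbpjΔEC libraries lie above the 3 CTRL libraries for Nfkb2, Nfkbiz and Nfkbid, and the groups overlap for the other members.

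The remaining inhibitors are the classical feedback elements. Nfkbia (ENSMUSG00000021025.8, chr12:55489410-55492647, minus strand) encodes IκBα, which retains and exports canonical dimers. It was at 238, 273 and 207 CPM in CTRL 1 to 3 and at 193, 231 and 268 CPM in RbpjΔEC 1 to 3, with overlapping groups and a log2 fold change of -0.05 ± 0.134 (SE; edgeR adjusted p = 0.879). The ratio of Nfkbiz to Nfkbia counts was 0.460, 0.567 and 0.527 in CTRL 1 to 3 against 1.23, 0.942 and 0.867 in RbpjΔEC 1 to 3. In every RbpjΔEC library this ratio was above every CTRL library, whereas the ratio of Nfkbia to Rela counts overlapped, at 2.04, 2.47 and 2.05 against 1.69, 2.06 and 2.57. As the groups overlapped for Nfkbia, the ratio of Nfkbiz to Nfkbia largely restates the values of Nfkbiz and is no separate result.

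Nfkbie (ENSMUSG00000023947.8, chr17:45555703-45563169, plus strand), the gene of IκBε, was at 22.3, 23.3 and 18.2 CPM in CTRL 1 to 3 and at 29.1, 30.6 and 21.8 CPM in RbpjΔEC 1 to 3. The groups overlapped only through RbpjΔEC 3, which lay below CTRL 1 and CTRL 2, and the log2 fold change was 0.35 ± 0.139 (SE; edgeR adjusted p = 0.220). Tnfaip3 (ENSMUSG00000019850.11, chr10:19000910-19015657, minus strand) encodes A20, a ubiquitin-editing enzyme that ends signalling upstream of the IκB kinase. It was at 103, 77.8 and 62.1 CPM in CTRL 1 to 3 and at 110, 103 and 83.8 CPM in RbpjΔEC 1 to 3. CTRL 1 lay within the range of the RbpjΔEC libraries, and the log2 fold change of 0.29 ± 0.200 (SE; edgeR adjusted p = 0.508) was the least precise among the members. It was 0.13 without CTRL 3 and 0.50 without CTRL 1.

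Of the subunits, Nfkb2 and Relb belong to the non-canonical branch. Nfkb2 (ENSMUSG00000025225.15, chr19:46304320-46312385, plus strand), the gene of p100 and p52, was at 86.7, 82.5 and 63.4 CPM in CTRL 1 to 3 and at 117, 126 and 90.1 CPM in RbpjΔEC 1 to 3. The groups did not overlap, but RbpjΔEC 3 exceeded CTRL 1 only narrowly, and the log2 fold change of 0.52 ± 0.154 (SE) had an adjusted p of 0.148 in edgeR and of 0.0131 in DESeq2. Its exons overlap those of AC114539.1 and Psd on the other strand, and as the strand setting of the counting is not given in the sources used here, reads of these genes may be shared. For the other 9 members no exon overlapped that of another gene in the annotation used here.

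Relb (ENSMUSG00000002983.17, chr7:19606217-19629438, minus strand), the gene of the transactivating partner of p52, was at 47.7, 43.9 and 31.0 CPM in CTRL 1 to 3 and at 58.6, 57.7 and 41.9 CPM in RbpjΔEC 1 to 3. RbpjΔEC 3 lay below CTRL 1 and CTRL 2, and the log2 fold change was 0.37 ± 0.192 (SE; edgeR adjusted p = 0.377). Without CTRL 3 it was 0.20. The count ratio of Nfkb2 to Nfkb1 was 0.541, 0.507 and 0.398 across CTRL 1 to 3 and 0.696, 0.732 and 0.601 across RbpjΔEC 1 to 3, with no overlap. As Nfkb1 hardly differed between the groups, this ratio largely restates the values of Nfkb2 and is no separate result.

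The other 3 subunits are those of the canonical branch. Nfkb1 (ENSMUSG00000028163.17, chr3:135584655-135691547, minus strand), the gene of p105 and p50, was at 160, 163 and 160 CPM in CTRL 1 to 3 and at 168, 172 and 150 CPM in RbpjΔEC 1 to 3. Rela (ENSMUSG00000024927.8, chr19:5637483-5648130, plus strand) was at 117, 110 and 101 CPM in CTRL 1 to 3 and at 114, 112 and 104 CPM in RbpjΔEC 1 to 3. For both the groups overlapped, with log2 fold changes of 0.02 ± 0.0709 for Nfkb1 (SE; edgeR adjusted p = 0.894) and of 0.01 ± 0.0753 for Rela (SE; edgeR adjusted p = 0.960). These were also the members with the smallest standard errors. Rel (ENSMUSG00000020275.9, chr11:23736847-23770970, minus strand), the gene of c-Rel, which is best known from lymphocytes, was at 26.0, 22.1 and 18.8 CPM in CTRL 1 to 3 and at 29.3, 26.0 and 24.7 CPM in RbpjΔEC 1 to 3. Only CTRL 1 reached into the RbpjΔEC range, just above RbpjΔEC 2, and the log2 fold change was 0.26 ± 0.122 (SE; edgeR adjusted p = 0.300), and 0.15 without CTRL 3.

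**Figure D3:**
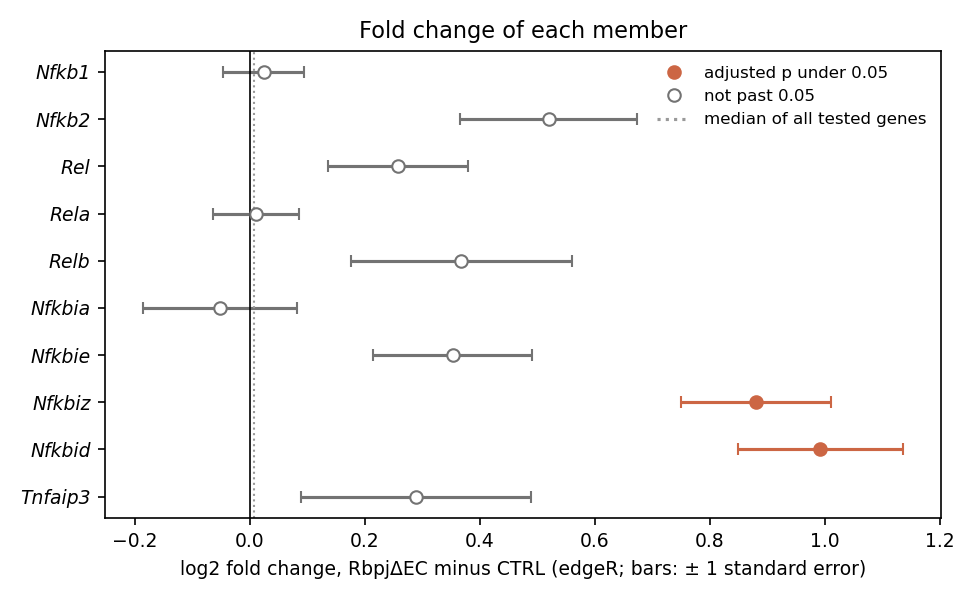
Log2 fold change of each gene (RbpjΔEC minus CTRL, edgeR, n = 3 and 3) with ± 1 standard error, and the median of all tested genes as a dotted line. Nfkbiz (0.88) and Nfkbid (0.99) are past an adjusted p of 0.05, and Nfkb1, Rela and Nfkbia lie within 0.1 of 0.

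The members also varied among the libraries of a group, and they did so together. CTRL 3 was the lowest CTRL library for 9 of the 10 genes, where it was lowest for 31.3% of all tested genes, and Nfkbid was the exception, with its lowest value in CTRL 1. RbpjΔEC 3 was the lowest RbpjΔEC library for 7 of the 10, where it was lowest for 34.9% of all tested genes. The exceptions were Nfkbia, which was lowest in RbpjΔEC 1, and Nfkbiz and Nfkbid, which were lowest in RbpjΔEC 2. For these 7 genes (Nfkb1, Nfkb2, Rel, Rela, Relb, Nfkbie and Tnfaip3), the lowest value of each group thus came from the same pair of libraries. RbpjΔEC 3 also had the highest counts of proximal tubule markers, with Lrp2 (megalin) at 129 CPM against 29.0 to 29.2 CPM in the other RbpjΔEC libraries, and the part of this in the lower member levels was not tested.

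After centring log2 CPM on the mean of each gene, the root mean square distance between 2 members over the 6 libraries gave a picture of which profiles were alike. These groupings were made after the values were seen. The closest pair was Nfkb1 and Rela (0.0659), both nearly level, followed by Nfkbiz and Nfkbid (0.0929), the genes of the nuclear IκB proteins. Nfkb2, Relb and Nfkbie were at 0.0960 to 0.100 from each other, and Rel was at 0.102 from Tnfaip3, with low values in CTRL 3 in each of these 5 genes. Nfkbia was closest to Rela, at 0.199, and thus followed none of the other inhibitors closely.

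**Figure D4:**
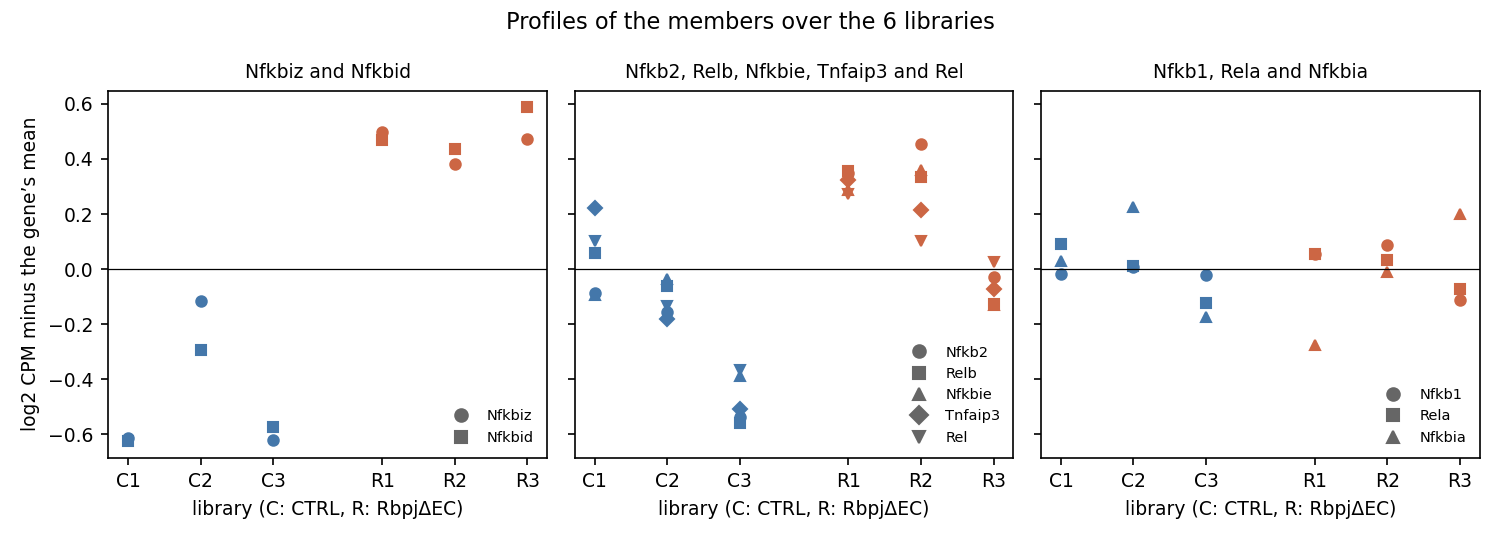
Centred log2 CPM of each gene in CTRL 1 to 3 (C1 to C3) and RbpjΔEC 1 to 3 (R1 to R3), in 3 panels grouped by likeness after the values were seen. Nfkbiz, Nfkbid and, narrowly, Nfkb2 separate the groups. Nfkb2, Relb, Nfkbie, Tnfaip3 and Rel share low values in C3 and, relative to R1, in R3, and Nfkb1 and Rela stay near 0.

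Levels can be compared between genes only per length. Per kilobase of merged exons, the order in CTRL was Nfkbia (148 ± 20.5 CPM per kb, SD, n = 3), Rela (35.6 ± 2.64), Nfkbiz (24.8 ± 5.24), Nfkb2 (16.9 ± 2.71), Nfkb1 (13.3 ± 0.142), Tnfaip3 (11.2 ± 2.86), Relb (10.5 ± 2.25), Nfkbie (6.99 ± 0.885), Rel (2.99 ± 0.487) and Nfkbid (2.42 ± 0.310). The CTRL ranges of Nfkb1 and Tnfaip3, of Tnfaip3 and Relb, and of Rel and Nfkbid overlapped, so these neighbours cannot be ordered. In RbpjΔEC, Nfkbiz stood second at 45.6 ± 1.94 CPM per kb, above Rela at 35.8 ± 1.66, and Nfkbid at 4.82 ± 0.272 stood above Rel at 3.57 ± 0.316. With the longest transcript in place of merged exons, Nfkb1 moved to the third place in CTRL, at 38.8 ± 0.412 CPM per kb, ahead of Nfkbiz and Nfkb2, because its merged exons are much longer (12061 bases) than its longest transcript (4149 bases).

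Among the 10442 tested genes with a mean of at least 5 CPM, those closest in profile to Nfkbiz were Gm45053 (distance 0.0584), Gm26532 (0.0826) and Hypk (0.0850). Those closest to Nfkbia were Ddit4 (0.0596), Plin2 (0.0653) and Mkks (0.0663), and those closest to Tnfaip3 were Gm37606 (0.0777), Rasgrp4 (0.0878) and Vsig10l (0.0965). No other member was among them. Exons of Gm45053, Gm26532, Hypk, Mkks, Rasgrp4 and Vsig10l overlap those of other genes, so their own counts are uncertain.

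The rest of the pathway was read from 6 further lists of 102 genes, of which 85 were tested. Of these, 2 were called higher and 0 lower (2.35%, against 1.13% of all tested genes), and their median log2 fold change was 0.05. A rise at an unadjusted p below 0.05 was seen for 14 of the 85, against 8.88% of all tested genes, and a fall for 5. That share of 8.88% is also the background for the rises counted in each list below. Of the other inhibitors, none of 15 was called (edgeR, 3 with a rise at an unadjusted p below 0.05), and the smallest p-values belonged to Bcl3, the gene of another nuclear IκB protein, with 15.7 against 22.3 mean CPM and a log2 fold change of 0.51 (edgeR adjusted p = 0.106), Zc3h12a (0.38) and Tnip2 (0.27). Without RbpjΔEC 1, Zc3h12a was at 0.25 and Tnip2 at 0.17. Bcl3 was called with the replicate number as a block (edgeR adjusted p = 0.0370) and without RbpjΔEC 3 (edgeR adjusted p = 0.0485). In those fits 1.87% and 2.73% of all tested genes were called. Without the low-count filter, edgeR called 3 of the other inhibitors (Bcl3, Zc3h12a and Tnip2), where 3.75% of all tested genes were called. Of the 25 kinases and adaptors, none was called (edgeR, 4 with a rise at an unadjusted p below 0.05). Rnf31, the catalytic subunit of the linear ubiquitin ligase that acts on the IκB kinase complex, had the smallest p with a log2 fold change of 0.39 (edgeR adjusted p = 0.0754, DESeq2 adjusted p = 0.0245), followed by Myd88 (0.31), the adaptor of Toll-like and interleukin-1 receptors, and Bcl10 (0.26). Without CTRL 2, edgeR called Rnf31 (adjusted p = 0.0108) and Myd88 (adjusted p = 0.0415), where 3.65% of all tested genes were called. The same 2 genes were called in edgeR without the low-count filter.

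Among 11 receptors, Tnfrsf12a, the receptor of the cytokine TWEAK, rose from 8.88, 10.7 and 10.1 CPM in CTRL 1 to 3 to 16.2, 13.6 and 15.3 CPM in RbpjΔEC 1 to 3, a log2 fold change of 0.60 ± 0.123 (SE; edgeR adjusted p = 0.0430). With 1 library left out, this call held in 1 of 6 fits, without CTRL 2, and the adjusted p in edgeR ranged up to 0.198. It was also lost with the replicate number as a block (edgeR adjusted p = 0.0587). Its ligand gene Tnfsf12 was at a log2 fold change of -0.25 ± 0.165 (SE; edgeR adjusted p = 0.463), and it was -0.49 without RbpjΔEC 2 and -0.12 without RbpjΔEC 3. The median of the receptors was -0.11, and Tlr4 (-0.17) and Il1rap (-0.24) had the next smallest p-values without being called. Of 10 ligands, 5 were tested and none was called (edgeR, 1 with a rise at an unadjusted p below 0.05). Tnf was at 0.948, 0.993 and 1.23 CPM in CTRL 1 to 3 and at 1.49, 2.46 and 2.37 CPM in RbpjΔEC 1 to 3 (edgeR adjusted p = 0.127), and Tnfsf13b (BAFF) was below 0.6 CPM in every library, with a log2 fold change of 1.33 ± 0.655 (SE; edgeR adjusted p = 0.318), which was 2.03 without CTRL 1.

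Of 32 canonical target genes, 26 were tested, 1 was called higher (against 0.575% of all tested genes) and 0 lower. The median over the list was 0.06 (log2 fold change). At an unadjusted p below 0.05 there were 5 rises, against 8.88% of all tested genes, and 2 falls. The groups did not overlap for 5 genes that were higher, against 11.4% of all tested genes, and for 2 that were lower. Shares of all tested genes for falls and for lower groups were not computed. The called gene was Irf1, an interferon regulatory factor, at 240, 269 and 252 CPM in CTRL 1 to 3 against 352, 363 and 315 CPM in RbpjΔEC 1 to 3, a log2 fold change of 0.44 ± 0.0771 (SE; edgeR adjusted p = 0.0246). The call was lost without CTRL 1 (0.110), CTRL 3 (0.121), RbpjΔEC 1 (0.127) or RbpjΔEC 2 (0.0990), all edgeR adjusted p-values, and held in the other 2 of 6 such fits. Ier3 (0.50, edgeR adjusted p = 0.0684) and the chemokine gene Cx3cl1 (-0.31, edgeR adjusted p = 0.0820) followed in opposite directions, and DESeq2 called Ier3 higher (adjusted p = 0.00542) and Cx3cl1 lower (adjusted p = 0.0392). Of 8 targets linked to the non-canonical branch, 3 were tested and none was called (edgeR, 2 with a fall at an unadjusted p below 0.05). Ccl21a was at -1.47 (edgeR adjusted p = 0.0703), Cxcl12 at -0.50 (edgeR adjusted p = 0.116) and Enpp2 at 0.22 (edgeR adjusted p = 0.886). DESeq2 called Ccl21a (adjusted p = 0.0210) and Cxcl12 (adjusted p = 0.0372) lower.

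**Figure D5:**
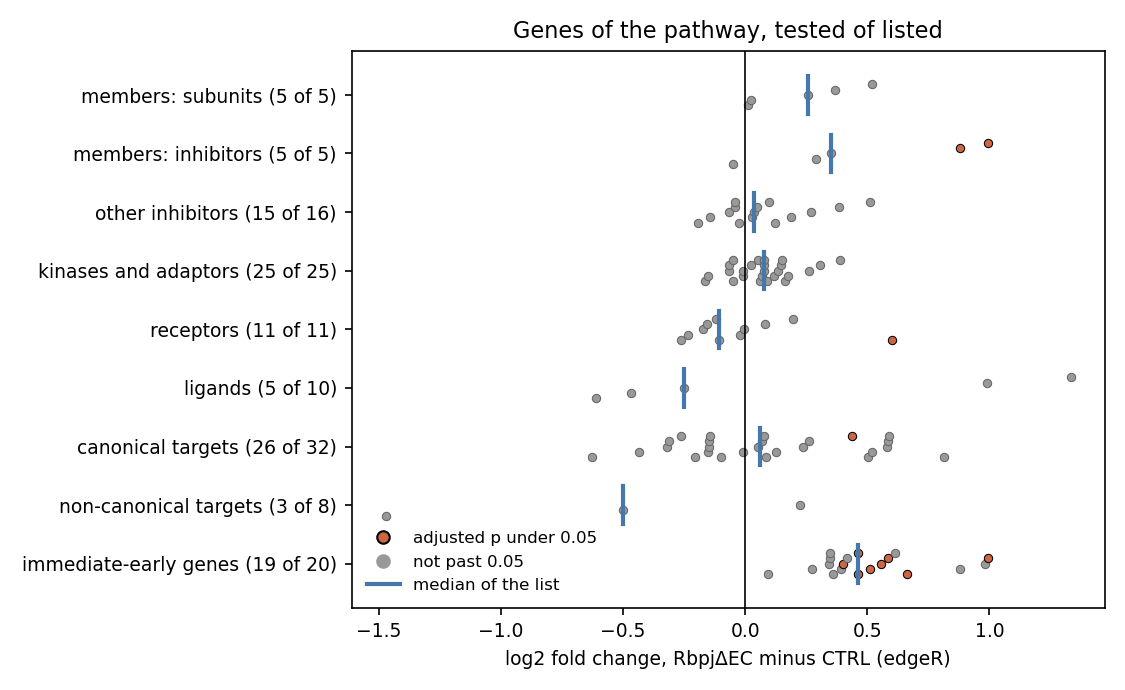
Log2 fold change (RbpjΔEC minus CTRL, edgeR) of each tested gene in the lists of the pathway, with the number tested of those listed and the median of each list as a bar. Besides Nfkbiz and Nfkbid, the genes past an adjusted p of 0.05 are Tnfrsf12a, Irf1 and 8 immediate-early genes.

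Immediate-early genes, which respond within minutes to stimuli such as growth factors or tissue dissociation, were read as a further list. Of 20 listed, 19 were tested, and 8 were called higher and 0 lower, against 0.575% of all tested genes called higher. The groups did not overlap, with RbpjΔEC above CTRL, for 16, against 11.4% of all tested genes, and the median log2 fold change was 0.46. Called were Egr1 (0.66), Btg2 (0.58), Ppp1r15a (0.46), Egr3 (1.00), Atf3 (0.55), Fos (0.46), Junb (0.51) and Ier2 (0.40). These calls depended on single libraries: the 8 became 1 without CTRL 1, 0 without CTRL 3, 1 without RbpjΔEC 1 and 1 without RbpjΔEC 2, and 12 without CTRL 2 and 13 without RbpjΔEC 3. Egr1 passed in 5 of the 6 fits and each of the other 7 in 2. Their list summed to 6603 to 7746 CPM in CTRL and to 8793 to 10500 CPM in RbpjΔEC, without overlap, and the part of this in the rise of Nfkbiz and Nfkbid was not tested.

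The cells carried the defining markers of endothelium: all 12 listed endothelial genes were tested, Kdr had 5994 and 4960 mean CPM and Flt1 had 4713 and 3988 mean CPM in CTRL and RbpjΔEC, and none was called (edgeR, 1 with a rise and 4 with a fall at an unadjusted p below 0.05). Their sum did not overlap, at 21946 to 24068 CPM in CTRL and 19905 to 20209 CPM in RbpjΔEC, their median log2 fold change was -0.18 with 9 of 12 values below 0, and the part of this in the member levels was not tested. As these are bulk samples, fewer cells of a type and less RNA per cell cannot be told apart. The 12 macrophage markers summed to 27.5 to 36.5 CPM in CTRL and to 33.9 to 40.5 CPM in RbpjΔEC, with 1 of 7 tested called higher (Cd68, 9.97 against 24.0 mean CPM) and 1 lower (Mrc1, 6.03 against 2.05). Apart from Cd68, all other 6 tested macrophage markers had log2 fold changes below 0, the median was -1.25, and 1 rise and 3 falls had an unadjusted p below 0.05. Cd14 was at 8.89 and 7.90 mean CPM, Adgre1, C1qa, C1qb, C1qc, Itgam and Fcgr1 were below 0.6 CPM in every library, and the part of macrophages in the member levels was not tested further. Mural markers summed to 76.0 to 94.4 CPM in CTRL and to 31.3 to 49.1 CPM in RbpjΔEC, with 3 of 7 called lower (Acta2, Myh11 at 29.7 against 14.0 and Rgs5 at 18.6 against 10.1 mean CPM), and stromal markers to 4.16 to 6.41 and 1.24 to 2.57 CPM, with 1 of 2 called lower (Pdgfra, 3.46 against 1.09 mean CPM, beside Col1a2 at 1.82 against 0.510). Tubule markers summed to 284 to 437 CPM in CTRL and to 102 to 376 CPM in RbpjΔEC, with none of 8 called (edgeR, 2 with a fall at an unadjusted p below 0.05), and Slc12a3 and Slc12a1 were the most abundant. B cell markers, led by Cr2 and Ighm, summed to 1.54 to 3.09 CPM in CTRL and, without overlap, to 0.312 to 0.858 CPM in RbpjΔEC, with none of 2 tested called (edgeR, 0 at an unadjusted p below 0.05). T cell markers summed to 3.39 to 5.53 CPM in CTRL and to 4.91 to 8.73 CPM in RbpjΔEC, nearly all of it Lck, with Trac below 0.2 CPM and Cd3e and Cd3d at 0 throughout, and its single tested gene was not called (edgeR, 1 with a rise at an unadjusted p below 0.05). The mural, stromal and B cell sums differed opposite to Nfkbiz and Nfkbid, and their part in the result was not tested.

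Rbpj itself (ENSMUSG00000039191.12) was at 28.1, 29.7 and 29.8 CPM in CTRL 1 to 3 and at 28.9, 26.1 and 29.6 CPM in RbpjΔEC 1 to 3, with a log2 fold change of -0.05 ± 0.0867 (SE; edgeR adjusted p = 0.793). The counts cover the whole gene and not the floxed part alone, so they do not check the deletion. Over all tested genes 209 were called, 106 higher and 103 lower.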

How the data were processed

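RNA from sorted kidney ECs of 3 CTRL and 3 RbpjΔEC mice was analysed, with groups taken from the sample titles. The authors trimmed the reads (Trim Galore 0.6.4), aligned them with STAR 2.6.1d to GRCm38.p6 with GENCODE release M25 and counted them per gene with featureCounts (Subread 1.6.4). The versions come from the submitters' processing notes. The deposited values are whole-number counts per gene without normalization. The libraries were made with a stranded kit, but the strand setting of the counting is not given in the sources used here, and PCR duplicates cannot be recognised in counts.

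The 10 members and all gene lists were chosen with earlier results of these data known. With edgeR 4.0.16 in R 4.3.3, counts were filtered (filterByExpr), scaled by TMM to CPM and tested (robust glmQLFit, glmQLFTest), with Benjamini-Hochberg adjustment over 18438 genes and a threshold of 0.05. The standard error is the log2 fold change divided by the square root of F. DESeq2 1.42.0 and other filters, scalings, a replicate block and each library left out were alternatives. With 3 libraries against 3, an exact permutation test of a single value cannot go below p = 0.1, so none was used. The fit was tested on simulated data. The total counts of 39649171 to 47726850 per library put a floor of 3 counts at 0.0629 to 0.0757 CPM. No pair of libraries within a group agreed within sampling noise. Profiles used log2 CPM with a prior count of 2.

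Named were every member, Rbpj, in each pathway list and the immediate-early list every gene past the threshold and the 3 smallest p-values, the 2 most abundant genes of each marker list and the 3 nearest profiles of Nfkbiz, Nfkbia and Tnfaip3. Other genes (Lrp2, Acta2, Mrc1 and further macrophage and T cell markers) were named after their values were seen. Positions, exons and lengths were taken from GENCODE M21 (GRCm38), where all 10 members have the same identifiers. Promoters came from the RefSeq table on GRCm38.p6. Protein sequences were not used here.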

Additional observations from a re-analysis of the deposited data

How the results depend on the processing

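The number of members called was 2 with RLE scaling (where 1.14% of all tested genes were called), with library size alone (1.31%) and with a filter of at least 1 CPM in 3 libraries (1.5%). It was 3 with DESeq2 (1.52%), which was also run without the low-count filter (38324 genes against 18438). In edgeR without that filter it was 5, with Nfkb2, Relb and Nfkbie added, where 3.75% of all tested genes were called, against 1.13% in the main fit. Genes called over the whole table went from 209 to 584 in DESeq2 without the filter and to 1436 in edgeR without it, so that test and filter were not varied separately in the DESeq2 counts, and calls in the pathway and immediate-early lists from 10 (10 higher) to 22 (19 higher, 3 lower) and to 29 (26 higher, 3 lower), the lower ones being Cx3cl1, Ccl21a and Cxcl12 in both. With 1 library left out, the members called ranged from 0 (without CTRL 3 or RbpjΔEC 1) to 3 (without RbpjΔEC 3). The list genes called ranged from 0 (without CTRL 3) to 17 (without CTRL 2 or RbpjΔEC 3). All genes called ranged from 21 (without RbpjΔEC 1, 0.11% of the genes tested) to 700 (without CTRL 2, 3.65%). This share was 0.125% without CTRL 3 and 2.73% without RbpjΔEC 3. Scaling by library size alone moved the share of higher calls from 50.7% to 66.0%. Nfkbiz and Nfkbid had positive log2 fold changes under all 12 alternatives and passed the threshold in 8 and 10 of them. With 1 library left out, the log2 fold change ranged from -0.173 to 0.0625 for Nfkbia (positive without CTRL 2 or RbpjΔEC 1), from -0.0475 to 0.0570 for Rela (negative without CTRL 3, RbpjΔEC 1 or RbpjΔEC 2), from -0.0145 to 0.0831 for Nfkb1 (negative without RbpjΔEC 2), from 0.13 to 0.50 for Tnfaip3, from 0.20 to 0.51 for Relb, from 0.15 to 0.38 for Rel, from -0.0888 to 0.0013 for Rbpj (positive without RbpjΔEC 2) and from -0.61 to 0.63 for Enpp2 (negative without RbpjΔEC 3, and -0.0621 with the replicate block). With the longest transcript as length, 7 of the 10 members kept their place in the order of levels in CTRL. The causes were not tested. The replicate numbers are shared by both groups. Same-numbered libraries had correlations of 0.0231, 0.00916 and 0.00544 between their deviations from the group means over all tested genes. With 3 libraries per group, these values cannot decide whether the numbers pair the mice. A fit with the replicate number as a block called 344 genes, or 1.87% of those tested, and 15 list genes. It called 3 members (with Nfkb2, adjusted p = 0.00743 in edgeR) and lost the call of Tnfrsf12a. At this number of libraries the values of Relb, Nfkbie, Rel and Tnfaip3 do not show whether they changed.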
